A study of Mus musculus with 18 samples.

Results

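To ask which transcripts depend on Treml4 in lipid-loaded macrophages, the 3 libraries of Apoe-/-/Treml4-/- double-knockout (DKO) bone marrow-derived macrophages (BMDM) given 60 µg/ml oxidized LDL (oxLDL 60) were compared with the 3 libraries of Apoe-/- BMDM given the same dose. These 6 libraries were chosen by their labels from 18, and the genes compared were those with at least 0.1 RPKM in at least 3 of the 18 libraries, 12838 of 18668 symbols. RPKM is the number of reads on a gene scaled to its length and to the reads of the library. Every mouse in the series lacked Apoe, the controls included, so that each difference below is that between DKO and Apoe-/- cells, on a background labelled C57BL6 with no substrain. The DKO mice came from a cross of Treml4-/- and Apoe-/- mice and were then intercrossed. Loss of Treml4 therefore cannot be told apart from other differences between the DKO and Apoe-/- lines. Treml4 was absent from every cell of the mouse and not from macrophages alone. The cells were marrow cells grown with M-CSF, without sorting, and no age is given in the sources used here. The other 12 libraries were untreated cells and cells given oxLDL at 10 µg/ml (oxLDL 10) of both genotypes, with 3 replicates in each of the 6 groups. The series text gives 16 h of oxLDL and the study's methods give a different time. A treatment label also names LPS, and this was not resolved.

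Treml4 belongs to the TREM family, cell-surface receptors of myeloid cells that signal through adaptors such as DAP12 (Tyrobp), and it has been tied to signalling from endosomal Toll-like receptors. oxLDL is a modified lipoprotein that macrophages take up through scavenger receptors, becoming the lipid-filled foam cells of atherosclerotic lesions. Macrophages also recycle iron, and ferroportin, encoded by Slc40a1, is the membrane protein through which iron leaves the cell.

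Depth recovered from the table was 39.7 M to 54.2 M reads per library. The macrophage markers summed to 8676 to 11220 RPKM in Apoe-/- and 7335 to 9414 RPKM in DKO libraries, and all 14 were tested. The B or T lymphocyte markers summed to 0.176 to 0.497 RPKM and 0.267 to 0.537 RPKM, with Cd3e at 0, and the neutrophil markers to 32.0 to 45.5 RPKM and 34.6 to 62.1 RPKM. Stromal markers, led by Acta2, summed to 1.82 to 29.9 RPKM in Apoe-/- and 2.65 to 8.12 RPKM in DKO libraries, and their part in the results was not tested. Dendritic cell markers summed to 3.72 to 7.81 RPKM and 3.41 to 6.09 RPKM, osteoclast markers to 10.0 to 13.7 RPKM and 9.09 to 10.2 RPKM, and the mast cell and erythroid lists to at most 0.243 RPKM and 0.208 RPKM. Xist, the RNA that silences an X chromosome in female cells, was at 8.59 RPKM in Apoe-/- replicate 2 and 14.3 RPKM in DKO replicate 3 and at most 0.0561 RPKM in the other 4 libraries, while the Y-linked Ddx3y stood at 13.8 to 17.3 RPKM in those 4. Each genotype therefore held 1 library that differed in sex from the other 2. Lars2 ran from 9.77 to 994 RPKM and was highest in DKO replicates 2 and 3. The nuclear RNA Malat1 was at 135, 126 and 158 RPKM in Apoe-/- and 203, 282 and 201 RPKM in DKO replicates, groups that did not overlap, although the adjusted p was 0.302. Its part in the results was not tested.

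Between genotypes at oxLDL 60, 16 of 12838 genes, or 0.125%, differed with a Benjamini-Hochberg adjusted p under 0.05 and at least 1.4-fold in limma. Of these, 10 were higher in DKO cells (0.0779%) and 6 were lower (0.0467%), and in all 16 the 3 DKO libraries did not overlap the 3 Apoe-/- libraries. Groups that did not overlap were seen in 16.5% of all genes tested, 4.49% higher and 12% lower. An unadjusted p under 0.05 was seen in 7.88%, 2.62% higher and 5.26% lower. Apart from Treml4 itself, the called genes were Slc40a1, Nnt, Erdr1, Olfml3, G530011O06Rik, Dnajb3, Fos, Zkscan3, Efcab7 and Perm1, which were higher, and Entpd4, Entpd4b, Rpl39l, Rnase4 and Gas6, which were lower. The difference was small for most of the transcriptome. The 95% interval lay inside the 1.4-fold limits for 9619 genes, 74.9% of those tested, the median log2 fold change was -0.02 and its median standard error was 0.10. The spread behind these calls was estimated from all 18 libraries. With the 6 oxLDL 60 libraries alone 3 genes were called, Treml4, Slc40a1 and Nnt, and without Apoe-/- replicate 3 or without DKO replicate 2 the count was 8. For single genes, 3 against 3 libraries cannot give an exact permutation p below 0.1, and all 16 genes reached that value.

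**Figure D1:**
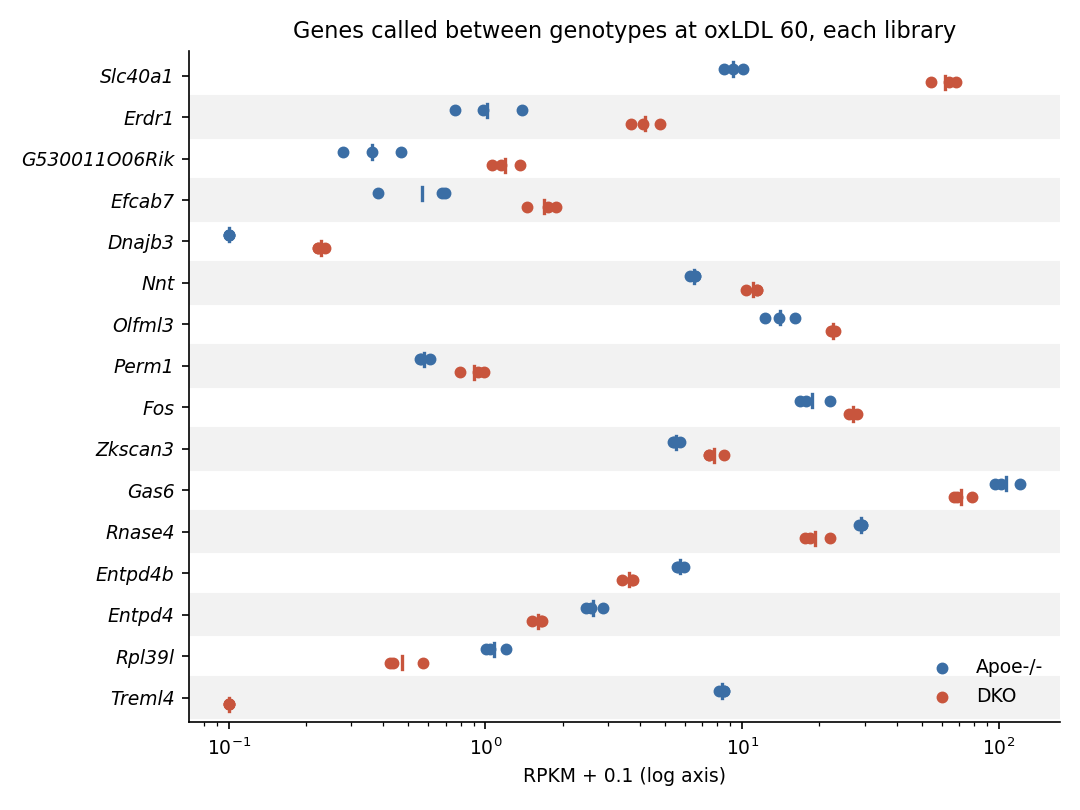
RPKM plus 0.1 on a log axis for each of the 16 called genes in the 3 Apoe-/- (blue) and 3 DKO (red) libraries at oxLDL 60, ordered by fold change, with 1 point a library and a bar at the mean of the logs. The DKO points sit apart from the Apoe-/- points in every row, by the largest distance for Treml4 and Slc40a1.

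**Figure D2:**
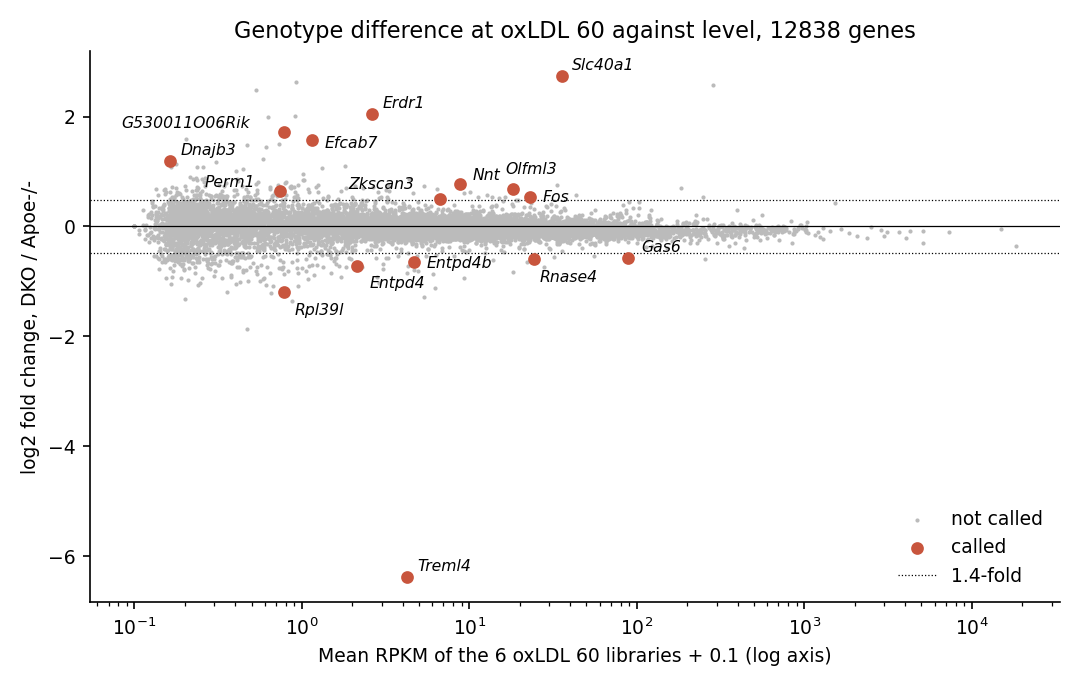
The log2 fold change of DKO over Apoe-/- at oxLDL 60 against the mean RPKM plus 0.1 of the 6 libraries (log axis) for the 12838 genes tested, 1 point a gene, with called genes in red and dotted lines at 1.4-fold. Slc40a1 and Gas6 are the called genes with high levels, and Dnajb3 lies at the low end of the level axis.

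The removed gene was examined first. Treml4 (chr17:48264295-48275360 on the plus strand of mm10) was at 8.36, 8.39 and 8.06 RPKM in Apoe-/- replicates 1 to 3 and at 0 in each of the 3 DKO libraries. With the limit of 3 reads per library, 0.0345 to 0.0433 RPKM, the level in DKO cells was at least 191-fold lower, a bound that covers counting error only. The rest of its family showed no difference of that size. Trem2, the receptor of lipid-associated macrophages, was at 528, 553 and 512 RPKM against 510, 506 and 503 RPKM, a log2 fold change of -0.07 with a 95% interval of -0.26 to 0.12. Trem1, which amplifies inflammatory signals and lies in the same gene cluster as Treml4, was at 2.10, 2.05 and 1.55 RPKM against 1.28, 1.46 and 1.5 RPKM, without overlap but with an adjusted p of 0.599. Treml4 has Trem3 and Treml2 as neighbours, and neither these nor Treml1 passed the test. Trem3 was at 1.02, 0.973 and 0.781 RPKM against 0.912, 0.556 and 0.937 RPKM (log2 fold change -0.21, 95% interval -0.60 to 0.18), Treml2 at 0.155, 0.231 and 0.156 RPKM against 0.167, 0.129 and 0.191 RPKM (-0.09, -0.45 to 0.27) and Treml1 at 0.384, 0.319 and 0.692 RPKM against 0.443, 0.667 and 0.465 RPKM (0.18, -0.31 to 0.68). The sign of each of the 3 turned when single libraries were left out. The adaptor Tyrobp had a log2 fold change of -0.11 (95% interval -0.34 to 0.12), and the related adaptor Hcst was at 7.72 ± 0.667 against 5.89 ± 0.45 RPKM (SD, n = 3; adjusted p = 0.503, limma). Of 16 members of the TREM and DAP12 list tested, 1 was called lower, Treml4, and none higher. Within 10 Mb of Treml4, 9 of the other 141 genes tested (6.38%) had an unadjusted p under 0.05, against 7.88% of all genes, and none was called. Within 10 Mb of Apoe this held for 14 of 198 genes (7.07%), again with none called. In the window around Treml4, Ubr2 was called once the fit also held Xist status, as given below.

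Apoe transcript remained detectable in both genotypes. It stood at 1.15, 3.02 and 1.43 RPKM in Apoe-/- and 0.761, 0.775 and 1.25 RPKM in DKO libraries. In each genotype the highest value belonged to the Xist-positive library. The log2 fold change was -0.85 ± 0.40 (SE) with an adjusted p of 0.63. When the fit also held Xist status, the same difference passed, with an adjusted p of 0.00383.

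Slc40a1, which encodes the iron exporter ferroportin, had the largest increase among the called genes. Its levels were 9.14, 8.39 and 9.96 RPKM in Apoe-/- and 64.1, 67.8 and 54.1 RPKM in DKO cells, a log2 fold change of 2.74 (95% interval 2.42 to 3.06, adjusted p = 1.75e-08, limma). All 3 DKO libraries stood far above the highest Apoe-/- library. The libraries are of whole cultures, in which more cells that express a gene and more RNA per cell cannot be told apart. The gene lies at chr1:45908068-45926523 on the minus strand, and no window of 50 bases of its transcripts occurs in another annotated transcript. Ferroportin mRNA is known to carry an iron-responsive element, a stem-loop bound by iron regulatory proteins that sets translation with iron supply. The element is shown because it belongs to the gene with the largest increase, although RNA abundance does not measure its use. In the coding transcript of GENCODE M21 it lies at bases 96 to 112 of the 5′ UTR (chr1:45925471-45925487, minus strand), ahead of the start codon at base 320. Capitals mark the loop, and the 5 bases on each side of it pair.
Slc40a1 iron-responsive element: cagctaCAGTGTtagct
The letters searched were C, any 5 bases, CAGTG, a base other than G and 5 bases that pair with the first 5 (G with T allowed), on the sense strand, and 0.93% of 21877 protein-coding genes held them in their longest transcript.

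The other genes of iron handling did not share this change. Of 28 tested, Slc40a1 was called and the rest were not, where 0.125% of all genes were called. The 95% intervals of 21 lay inside the 1.4-fold limits, near the 74.9% of all genes. The list median was -0.05 beside -0.02 for all genes. Fth1, the heavy chain of the iron store ferritin, was at 4077, 4212 and 4671 RPKM against 4164, 3393 and 3714 RPKM, ranges that overlapped. Blvra, which reduces the biliverdin formed from heme, was at 69.8 ± 4.29 against 60.5 ± 0.630 RPKM, and Slc25a37, the mitochondrial iron importer, was at 6.60 ± 0.103 against 7.56 ± 0.562 RPKM (SD, n = 3). Their adjusted p-values were 0.526 and 0.621. Ncoa4, which delivers ferritin to lysosomes, had a log2 fold change of -0.21 (95% interval -0.45 to 0.04), and Cd163, the haemoglobin scavenger receptor, one of -0.37 (-0.81 to 0.07). The list thus held 1 large difference and otherwise small or unresolved ones.

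Nnt, the mitochondrial transhydrogenase that makes NADPH from NADH, was higher in DKO cells. It was at 6.15, 6.47 and 6.47 RPKM in Apoe-/- and 11.3, 11.4 and 10.3 RPKM in DKO libraries, a log2 fold change of 0.78 ± 0.07 (SE, adjusted p = 9.50e-06, limma). The C57BL/6J substrain is known to carry a deletion within Nnt, and the labels name no substrain. The study's methods give the Jackson Laboratory as the source of the Apoe-/- mice and another investigator as that of the Treml4-/- mice. The Nnt allele of either line was not tested. Among 19 genes of mitochondrial redox tested, Nnt was the one called. Txnrd2, the mitochondrial thioredoxin reductase, was at 9.12 ± 0.806 against 7.93 ± 0.346 RPKM, its substrate Txn2 at 36.7 ± 4.93 against 29.8 ± 6.05 RPKM and the lipid peroxidase Gpx4 at 162 ± 3.77 against 147 ± 1.55 RPKM (SD, n = 3). None of the 3 passed the adjustment, with adjusted p-values of 0.518, 0.573 and 0.665.

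Secreted proteins were found on both sides. Olfml3, an extracellular matrix scaffold protein, was at 16.0, 12.1 and 13.8 RPKM in Apoe-/- and 22.3, 22.8 and 22.1 RPKM in DKO cells (log2 fold change 0.69 ± 0.09, adjusted p = 0.00214, limma). Rnase4, a secreted ribonuclease, fell from 28.5, 29.1 and 29.3 RPKM to 17.4, 18.4 and 21.9 RPKM (adjusted p = 0.0116). Rnase4 shares 7.8% of its 50-base windows with Ang, which overlaps it on the same strand, so that its reads may be divided between them. Gas6, a ligand of the TAM receptors that bridges them to apoptotic cells, fell from 96.8, 121 and 102 RPKM to 66.8, 68.6 and 78.6 RPKM, a log2 fold change of -0.57 with an adjusted p of 0.0411. The call of Gas6 was lost in 10 of 18 alternative settings, the rescaling of the libraries and the removal of any 1 of 5 of the 6 libraries among them, all but DKO replicate 3. The call of Rnase4 was lost without any 1 of the same 5 libraries.

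Because Gas6 acts in the clearance of apoptotic cells, a list of receptors and bridging molecules was assembled after the values had been seen. Of 19 tested, 16 had negative log2 fold changes and 1, Gas6, was called, with a list median of -0.13. Of all genes tested 41.8% were above 0, and their median was -0.02. After rescaling of the libraries 14 were negative and the median was -0.10. Without the Xist-positive libraries 12 were negative and the median was -0.09. Mertk, the TAM receptor of macrophages, was at 3.92, 6.71 and 5.43 RPKM against 3.83, 3.92 and 4.46 RPKM. The complement component C1qa, which binds apoptotic cells, was at 467, 577 and 443 RPKM against 345, 345 and 451 RPKM, and C1qb and C1qc had log2 fold changes of -0.30 and -0.26. For these 3 genes the Xist-positive library was the highest of its genotype, and the groups overlapped.

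Fos, a subunit of the AP-1 transcription factor, was higher in DKO cells, at 28.0, 25.9 and 26.8 RPKM against 21.9, 17.6 and 16.8 RPKM (log2 fold change 0.53 ± 0.09, adjusted p = 0.0154, limma). Its call was lost without any 1 library other than Apoe-/- replicate 1. Fos transcription is known to respond to calcium and cAMP through CREB, whose binding site holds the letters TGACG. Its promoter is shown with that of Dnajb3, since among the 10 called genes with an entry in the RefSeq promoter table these 2 held TGACG in the 250 bases before the start. Both strands were searched and capitals mark the match (CGTCA where it lies on the other strand). TGACG occurred in 17.9% of 27025 such windows. The AP-1 letters TGANTCA, which do not overlap it here, occurred in 6.9% of all windows and in none of the 10. The windows are chr12:85473640-85473889 on the plus strand and chr1:88205749-88205998 on the minus strand of GRCm38.p6.
Fos promoter: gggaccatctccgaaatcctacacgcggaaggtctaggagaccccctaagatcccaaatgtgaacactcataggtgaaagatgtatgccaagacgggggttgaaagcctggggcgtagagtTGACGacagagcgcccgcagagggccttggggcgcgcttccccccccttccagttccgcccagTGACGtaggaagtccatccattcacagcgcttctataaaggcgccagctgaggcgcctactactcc
Dnajb3 promoter: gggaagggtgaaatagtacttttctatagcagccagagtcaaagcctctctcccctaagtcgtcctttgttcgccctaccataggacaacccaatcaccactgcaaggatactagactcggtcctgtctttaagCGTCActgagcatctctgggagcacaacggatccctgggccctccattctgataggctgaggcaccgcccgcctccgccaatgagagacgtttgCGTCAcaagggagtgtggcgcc
A match of these letters is a description of the sequence.

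Other early response genes were examined with a list that was also drawn up after values had been seen. Of 18 tested, 16 had positive log2 fold changes (41.8% of all genes were above 0), with a median of 0.12, and Fos was the 1 called. Without Apoe-/- replicate 2 or without DKO replicate 1 the positive count was 13. Dusp1, a phosphatase of MAP kinases, was at 17.9, 12.9 and 15.5 RPKM against 26.4, 24.5 and 15.4 RPKM, 2 DKO libraries above and 1 below the Apoe-/- range (adjusted p = 0.575). Fosl1 had a log2 fold change of 0.76 with a 95% interval of -0.39 to 1.92. Jun, the partner of Fos in AP-1, was at 30.1 ± 1.32 against 31.5 ± 1.74 RPKM (SD, n = 3), Junb at 20.0 ± 0.0801 against 23.1 ± 0.886 RPKM, and Atf3 at 188 ± 6.55 against 197 ± 18.4 RPKM.

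Entpd4 and Entpd4b encode Golgi and lysosomal nucleotidases, which split nucleoside di- and triphosphates. Entpd4 was at 2.78, 2.36 and 2.48 RPKM against 1.57, 1.55 and 1.41 RPKM, and Entpd4b at 5.46, 5.53 and 5.82 RPKM against 3.67, 3.63 and 3.31 RPKM. All of the 50-base windows of either gene occur in the other, and their longest transcripts of 3589 bases have 0 mismatches, so that reads cannot be assigned to 1 of the 2 and the pair is best read as a single measurement. In the list of ectonucleotidases and purinergic receptors these 2 were called of 19 tested. The ADP receptor P2ry12 (1.21 ± 0.324 against 0.801 ± 0.0408 RPKM) and the adenosine receptor Adora2b (1.3 ± 0.182 against 1.69 ± 0.143 RPKM; SD, n = 3) did not overlap between groups, with adjusted p-values of 0.526 and 0.538. Among low transcripts, Erdr1, which has no entry in the annotation used, rose from 0.879, 1.28 and 0.662 RPKM to 3.59, 4.02 and 4.67 RPKM (log2 fold change 2.05, adjusted p = 0.00105, limma). G530011O06Rik, a noncoding transcript on the X chromosome, rose from 0.262, 0.367 and 0.179 RPKM to 1.05, 1.26 and 0.965 RPKM (log2 fold change 1.72, adjusted p = 0.00341). It shares 14.8% of its windows with other genes.

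The remaining called genes were low or small in their change. Zkscan3, a zinc finger repressor of autophagy genes, rose from 5.35, 5.61 and 5.29 RPKM to 7.34, 8.43 and 7.33 RPKM. Efcab7, a ciliary protein of Hedgehog signalling, rose from 0.578, 0.597 and 0.283 RPKM to 1.66, 1.79 and 1.36 RPKM, and overlaps Itgb3bp on the other strand, whose reads cannot be told apart where counting ignored strand. Perm1, which regulates mitochondrial genes in muscle, was at 0.461, 0.508 and 0.457 RPKM against 0.838, 0.884 and 0.694 RPKM. Rpl39l, a variant of a ribosomal protein, fell from 0.940, 0.909 and 1.1 RPKM to 0.469, 0.336 and 0.324 RPKM (log2 fold change -1.20 ± 0.18, adjusted p = 0.00592). Dnajb3, a co-chaperone, was at 0 in the 3 Apoe-/- libraries and at 0.124, 0.123 and 0.138 RPKM in DKO libraries, which correspond to 5, 6 and 7 reads. Against the limit of 3 reads per library, 0.0544 to 0.0690 RPKM, its level was at least 1.86-fold higher, and its locus overlaps Ugt1a genes on the other strand, to which the same applies. Dnajb3 passed the filter on low values only with these DKO libraries included, so that its call is no independent support. Zkscan3 and Perm1 lost their calls without any 1 library other than DKO replicate 3, and Efcab7 without any 1 of 4, the exceptions being Apoe-/- replicate 2 and DKO replicate 3. Rpl39l and Dnajb3 lost theirs without Apoe-/- replicate 3 or without DKO replicate 2. None of these genes changed direction.

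Just inside the limits stood Gas6 and Zkscan3, the latter with a log2 fold change of 0.50 beside the limit of 0.485. Just outside were 3 genes whose adjusted p passed (19 of all genes, 0.148%) but whose change was under 1.4-fold. Hmgb2, a chromatin protein of dividing cells, was at 42.9, 39.3 and 40.4 RPKM against 31.8, 30.6 and 27.6 RPKM (adjusted p = 0.0141), Fam83f at 12.8, 12.7 and 13.9 RPKM against 19.3, 18.3 and 17.0 RPKM (0.0348), and Pdia6, a protein disulfide isomerase, at 115, 108 and 111 RPKM against 89.3, 88.8 and 90.8 RPKM (0.0446). Next among genes without overlap and with a mean of at least 1 RPKM, on the higher side, came Terc, the RNA of telomerase, Plekhn1, Psd3 and the class I gene H2-Q6, with log2 fold changes of 0.74, 0.67, 0.34 and 0.63 and adjusted p-values of 0.111, 0.159, 0.17 and 0.177. On the lower side came Hp1bp3, G6pdx, which starts the pentose phosphate pathway, and the mitotic cyclin Ccnb2, with -0.27, -0.28 and -0.26 and adjusted p-values of 0.111, 0.138 and 0.154.

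Chaperones of the endoplasmic reticulum, a list also assembled after the values had been seen, showed small differences in 1 direction. Of 22 tested, all 22 had negative log2 fold changes, 16 with an unadjusted p under 0.05 (of all genes, 5.26% were lower by that measure), and 17 had DKO libraries wholly below the Apoe-/- libraries (12% of all genes). None was called, and the median was -0.21. Hspa5, the chaperone BiP, was at 258, 259 and 252 RPKM against 205, 212 and 230 RPKM. Calr was at 357 ± 16.0 against 304 ± 11.9 RPKM, Hsp90b1, which folds Toll-like receptors, at 228 ± 6.61 against 192 ± 5.35 RPKM, Manf at 84.2 ± 1.85 against 69.9 ± 6.13 RPKM and P4hb at 223 ± 1.5 against 195 ± 4.54 RPKM (SD, n = 3). After rescaling of the libraries all 22 stayed negative with a median of -0.18, and without the Xist-positive libraries with a median of -0.22. Leaving out Apoe-/- replicate 3 or DKO replicate 2 left 21 negative. The list median was -0.04 in untreated cells and -0.08 at oxLDL 10, where the medians of all genes were 0.09 and 0.05. The interaction with untreated cells was called for none of the 22, and 9 had an unadjusted p under 0.05 beside 9.78% of all genes.

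Lysosomal genes were also mostly below their Apoe-/- levels by small amounts. Of 30 tested, 27 had negative log2 fold changes (41.8% of all genes were above 0), and 15 were lower without overlap (12% of all genes). None was called, 29 had intervals inside the 1.4-fold limits (74.9% of all genes), and the list median was -0.13. After rescaling 25 were negative and the median was -0.10, and without the Xist-positive libraries 21 and -0.06. Lamp1, a membrane glycoprotein of lysosomes, was at 639 ± 37.2 against 551 ± 12.9 RPKM, and Atp6v0d1, a subunit of the proton pump, at 105 ± 2.20 against 92.2 ± 1.62 RPKM (SD, n = 3). The macrophage markers, which moved alongside these lists, had a median of -0.16. In a list of mitosis and cell cycle genes, likewise chosen after values had been seen, 24 of 38 were negative and 14 positive, beside 41.8% of all genes above 0. An unadjusted p under 0.05 was seen for 8 lower and 2 higher members, beside 5.26% and 2.62% of all genes. None was called. Cenpa, Cdkn3 and Cdc20 had log2 fold changes of -0.31, -0.28 and -0.24, with adjusted p-values of 0.17, 0.173 and 0.224.

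**Figure D3:**
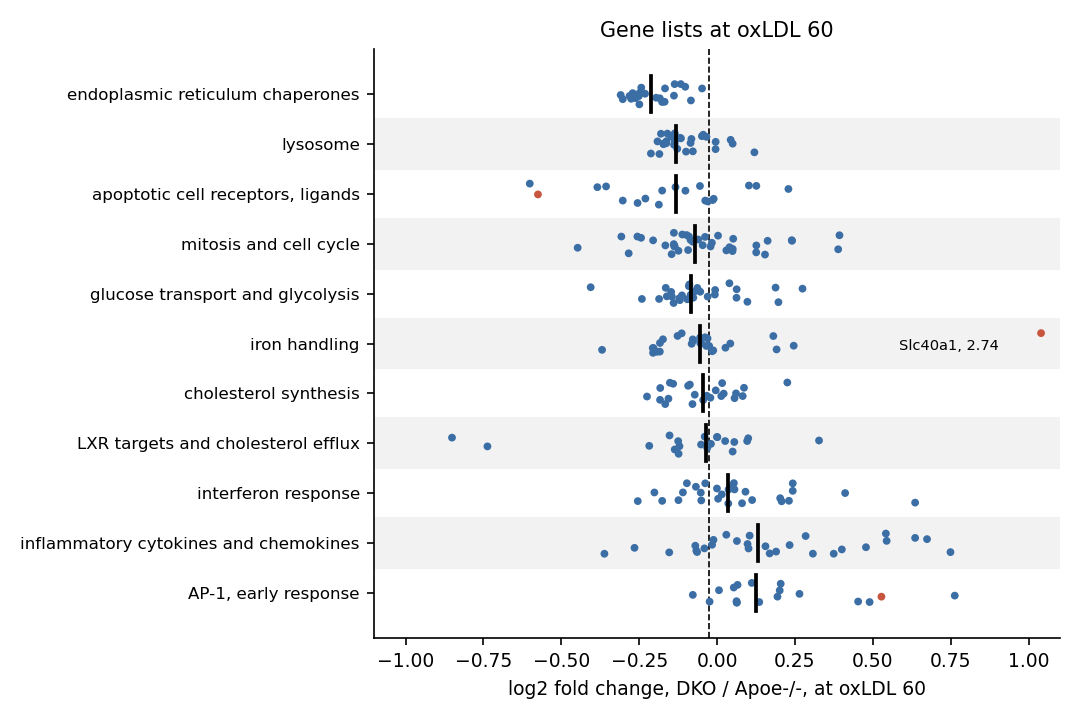
The log2 fold change of DKO over Apoe-/- at oxLDL 60 for the members of 11 gene lists, 1 point a gene, called genes in red, with a bar at the list median and a dashed line at the median of all genes. Endoplasmic reticulum chaperones lie to the left of 0 in all 22 cases, and Slc40a1, at 2.74, is drawn at the right edge of the iron row.

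No gene of lipid handling was called, with precision that differed between lists. As 0.125% of all genes were called, lists of this size without a call are near that share. Intervals inside the 1.4-fold limits were seen for 74.9% of all genes. Among cholesterol synthesis genes 0 of 23 were called and 22 had intervals inside the 1.4-fold limits, with Fdps at 21.8 ± 0.614 against 18.6 ± 1.09 RPKM. Intervals inside the limits were fewer elsewhere, with 12 of 20 LXR targets and efflux genes, 10 of 15 scavenger receptors, 11 of 15 lipid storage genes and 10 of 18 foam cell markers. The foam cell markers had 13 negative members and a median of -0.06. Without the Xist-positive libraries, 2 against 2 at oxLDL 60, they had 12 positive members and a median of 0.13. In that setting 7 were higher with an unadjusted p under 0.05, beside 1156 of all 12838 genes in either direction. Lpl, which releases fatty acids from lipoproteins, was at 226, 200 and 192 RPKM against 289, 257 and 184 RPKM, and the tetraspanin Cd9 at 285 ± 6.87 against 244 ± 21.4 RPKM (SD, n = 3). In glucose metabolism 0 of 29 genes of transport and glycolysis and 0 of 9 of the pentose phosphate pathway were called, and 26 and 9 had intervals inside the limits. Gapdh was at 1326 ± 45.1 against 1167 ± 73.3 RPKM, Pfkfb3, which drives glycolysis through fructose 2,6-bisphosphate, at 10.3 ± 0.807 against 12.5 ± 1.42 RPKM, and G6pdx at 96.8 ± 2.34 against 79.7 ± 2.00 RPKM. None of 24 NRF2 and glutathione genes was called, and 22 had intervals inside the limits. Across all solute carriers, taken by symbol, 1 of 216 was called, Slc40a1.

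Inflammatory genes were more variable. Of 28 cytokines and chemokines, 19 had positive log2 fold changes (41.8% of all genes were above 0) and none was called. Intervals lay inside the limits for 8 of them, beside 74.9% of all genes. Il10, an anti-inflammatory cytokine, was at 0.876, 0.934 and 0.448 RPKM against 1.29, 1.29 and 1.06 RPKM (log2 fold change 0.67, 95% interval 0.23 to 1.12, adjusted p = 0.44). Cxcl10, a chemokine induced by interferon, was at 2.30, 2.30 and 1.74 RPKM against 3.48, 2.40 and 4.34 RPKM (0.64, adjusted p = 0.54), and Tnf at 37.5, 26 and 31.7 RPKM against 41.8, 41.5 and 32.3 RPKM. The interferon response list had 0 of 28 called and a median of 0.04, and its median was -0.05 without DKO replicate 3 and -0.03 without Apoe-/- replicate 1. None of 22 endosomal Toll-like receptor genes was called. Tlr7, the receptor of single-stranded RNA, was at 25.7, 30.9 and 29.2 RPKM against 22.4, 21.8 and 26.4 RPKM (adjusted p = 0.499). In the list of cell death and survival 0 of 31 were called, with Bid, a linker of death receptors to mitochondria, at 33.9 ± 0.538 against 29.5 ± 0.306 RPKM (SD, n = 3; adjusted p = 0.266). Matrix remodelling had 1 of 26 called, Olfml3, and Mmp9 was at 1.02, 0.943 and 0.891 RPKM against 0.563, 0.407 and 0.789 RPKM (adjusted p = 0.503). Of a class I MHC list, also chosen after values had been seen, 0 of 17 were called, and H2-Q6 (7.86 ± 1.19 against 12.1 ± 0.643 RPKM), H2-Q7 (3.52 ± 0.192 against 5.49 ± 1.29 RPKM) and H2-Q9 (1.31 ± 0.295 against 2.17 ± 0.327 RPKM) did not overlap on the higher side (4.49% of all genes). On the lower side (12%) these were Tapbp, which loads peptides, and H2-T22, with log2 fold changes of -0.17 and -0.20. The list as a whole was balanced, with 9 positive and 8 negative members and a median of 0.000413. H2-Q6 shares 32% of its 50-base windows with other genes, so that these values are uncertain.

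The genes that the study itself names were chosen by it on these samples and are no independent evidence of direction. Of 31, 15 passed the filter on low values and 1, Slc40a1, was called. The others without overlap were Slc36a2 (0.159 ± 0.0411 against 0.347 ± 0.0360 RPKM), a proton-coupled amino acid transporter, Xk (0.311 ± 0.0392 against 0.477 ± 0.0525 RPKM), Fhod3 (0.161 ± 0.0208 against 0.280 ± 0.0369 RPKM), Slc16a4 (0.0372 ± 0.0419 against 0.118 ± 0.0340 RPKM), Slc9a4 (0.0843 ± 0.00824 against 0.145 ± 0.00810 RPKM), Adra1a (1.65 ± 0.165 against 2.81 ± 0.806 RPKM), Mmp9 and Fbxo32 (0.605 ± 0.0840 against 0.393 ± 0.105 RPKM; SD, n = 3). Their adjusted p-values ran upward from 0.128 for Slc36a2. The 16 below the filter held few reads. Sox9 had 9, 3 and 7 reads in Apoe-/- and 0, 1 and 0 in DKO libraries, and Dkk2 had 8, 12 and 9 against 2, 5 and 2.

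To place oxLDL 60 among the treatments, the called genes were read in untreated and oxLDL 10 cells. These are other libraries, but libraries of the same number within a genotype deviated together, so that calls at several treatments are not independent repeats. Of the 16, 9 were called at all 3 treatments, Treml4, Slc40a1, Nnt, Erdr1, Entpd4, Entpd4b, Olfml3, G530011O06Rik and Zkscan3. Fos and Efcab7 were called at oxLDL 60 and in untreated cells, and Perm1 at oxLDL 60 and oxLDL 10. Rpl39l, Dnajb3, Rnase4 and Gas6 were called at oxLDL 60 alone, which does not show that they differ between treatments. For Gas6 the log2 fold change was -0.47 in untreated cells and -0.44 at oxLDL 10, and for Rnase4 -0.45 and -0.42, with the same sign as at oxLDL 60. In total 27 genes (0.21%) were called in untreated cells and 11 (0.0857%) at oxLDL 10. Slc40a1 was at 1.59, 1.74 and 2.42 RPKM in untreated Apoe-/- and 8.18, 8.23 and 6.91 RPKM in untreated DKO cells, and at 3.11, 3.15 and 3.28 RPKM against 19.6, 23.5 and 15.0 RPKM at oxLDL 10. Its level was thus higher at each dose in both genotypes, with DKO libraries above Apoe-/- libraries throughout. The genotype difference of Nnt was 0.82, 0.82 and 0.78 on the log2 scale in untreated, oxLDL 10 and oxLDL 60 cells. Fos ran the other way with dose, at 57.6, 64.6 and 61.6 RPKM in untreated Apoe-/- against 94.2, 86.8 and 95.5 RPKM in untreated DKO cells, above all 6 of its values at oxLDL 60.

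**Figure D4:**
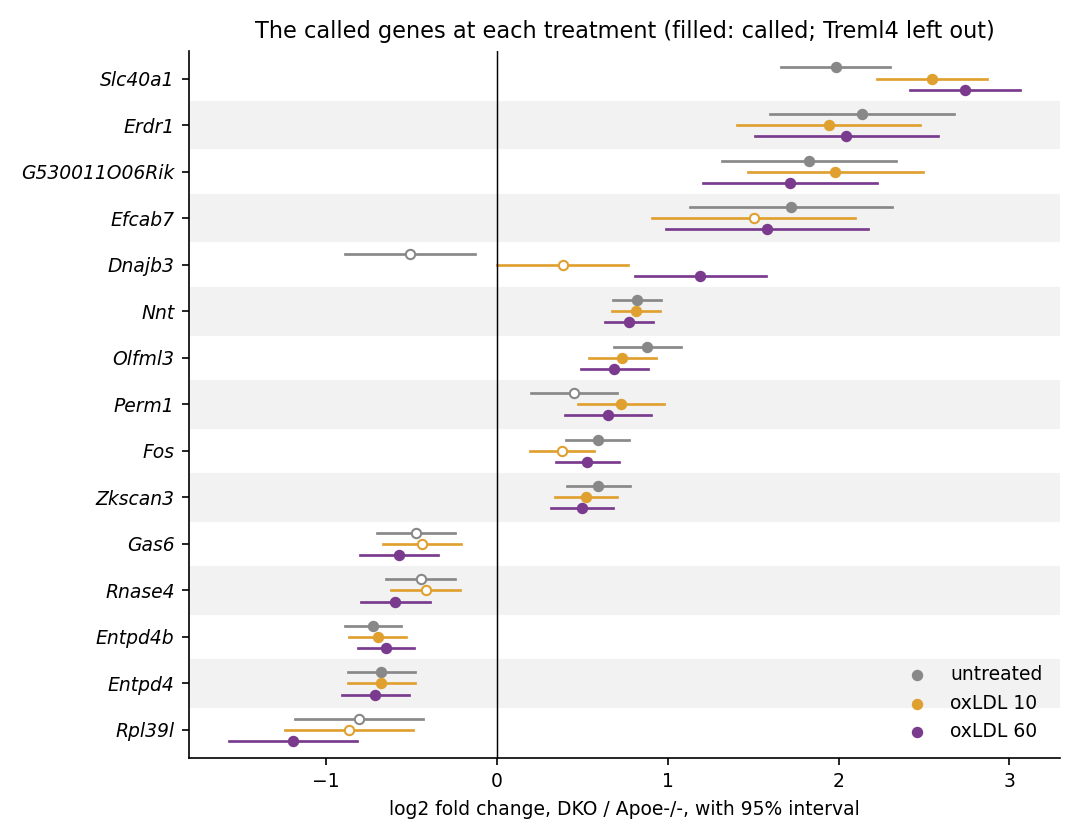
The log2 fold change of DKO over Apoe-/- for the called genes other than Treml4 in untreated (grey), oxLDL 10 (yellow) and oxLDL 60 (purple) cells, with 95% intervals from limma and filled points where the gene was called. The intervals of the 3 treatments overlap in most rows, and Dnajb3 changes sign between untreated cells and oxLDL 60.

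The difference between treatments was tested as an interaction, at first without a replicate block. Against untreated cells 2 genes were called (0.0156%), Treml4 and Dnajb3, and against oxLDL 10 none was called in limma, with 330 genes (2.57%) at an unadjusted p under 0.05. For Treml4 the interaction of -1.70 follows from its level in Apoe-/- cells, 1.86, 3.48 and 2.60 RPKM untreated, 3.27, 3.61 and 3.08 RPKM at oxLDL 10 and the higher values at oxLDL 60 given above, since DKO libraries were at or near 0 throughout. For Slc40a1 the interaction was 0.76 against untreated cells (adjusted p = 0.51) and 0.20 against oxLDL 10. With the animal as a fixed replicate block in the 12 libraries, 5 genes were called against untreated cells, Slc40a1, Treml4, Mir703, Scd2 and Snord16a, and against oxLDL 10 Treml4 and Mir703 were called. The median interaction over all genes against untreated cells was -0.11, and 0.01 after rescaling of the libraries.

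Because each genotype held 1 Xist-positive library, the comparison was also read within each kind. Between the 2 against 2 Xist-negative and between the 1 against 1 Xist-positive libraries, the log2 differences of Slc40a1 were 2.78 and 2.67, for Nnt 0.83 and 0.66, for Gas6 -0.55 and -0.62 and for Fos 0.49 and 0.61. Because the groups of every called gene did not overlap, their direction in these subsets was fixed, and these values are a description of size. When Xist status was added to the fit, 49 genes were called, 26 higher and 23 lower, all 16 among them. From the Xist-negative libraries alone, 2 against 2, 74 were called, with 14 of the 16 among them. The same replicate numbers recur across treatments and deviated together within a genotype, and neither fit held a block for this. The libraries are thus not independent, and the spread behind both counts may be understated. The part of sex in either count was not tested. The examples that follow were picked from the added genes after their values had been seen. Mrc1, the mannose receptor, was at 51.9, 85.0 and 61.3 RPKM in Apoe-/- and 39.0, 40.5 and 55.6 RPKM in DKO libraries, with an adjusted p of 0.54 without the term and 0.0366 with it. The lectin Mgl2 (0.809, 1.86 and 0.911 against 0.262, 0.527 and 0.726 RPKM), Cbr2 (5.44, 9.38 and 6.92 against 2.44, 1.67 and 5.62 RPKM) and the coagulation factor F13a1 (3.93, 9.28 and 5.38 against 3.01, 2.17 and 5.42 RPKM) had adjusted p-values of 0.044, 0.012 and 0.0445 with the term. In these 4 genes the Xist-positive library was the highest of its genotype. Vcam1, an adhesion molecule, was at 3.59, 3.46 and 4.01 RPKM against 2.72, 2.76 and 1.94 RPKM (0.0475 with the term). H2-Q6, H2-Q7 and H2-Q9 were among the added genes that were higher. H2-Q6 (chr17:35424850-35430055) and H2-Q7 (chr17:35439155-35443773) lie on the chromosome of Treml4, outside the 10 Mb window. Ubr2, a ubiquitin ligase, was lower at 20.2, 13.8 and 16.4 RPKM against 11.5, 11.1 and 9.87 RPKM. It lies at chr17:46928295-47010556, within 10 Mb of Treml4. Its adjusted p was 0.0162 with the term and 0.177 without it (limma).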

How the data were processed

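Total RNA of 18 BMDM cultures was sequenced, and the authors aligned reads with STAR to mm10 (submitters' processing notes) and deposited 1 table of RPKM values for 18668 symbols. The study's methods list RnaSeqC and Subread (written Subred) in the workflow, and a stranded library kit without saying whether it covers the oxLDL libraries. Which tool counted the reads, its strand setting and the annotation are not given in the sources used here, and 2 sequencing platforms are named for the same libraries. The authors ran DESeq2 on counts, which were not used here, and limma 3.58.1 (R 4.3.3, statmod 1.5.0) was here fitted to log2(RPKM + 0.1) of all 18 libraries with 1 mean per group (lmFit, eBayes with a trend), which understates changes of low genes. Calls needed a Benjamini-Hochberg adjusted p under 0.05 and at least 1.4-fold, the thresholds of the study's methods. RPKM divide by the reads of each library, so that a few abundant RNAs can lower all other values. Depth was recovered from low values, since 98.7% of 6529 lay within 0.05 of a whole number of reads (10.0% by chance), with GENCODE M21 lengths for 97.3% of symbols. 3 reads per kb equal 0.0553 to 0.0755 RPKM. Intervals of log2 fold changes are from the limma fit and measure the spread between libraries. Limits of detection cover counting error only.

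Groups and replicate numbers came from the labels. The labels do not say that replicates are separate animals, so p-values measure the spread between these libraries. The Xist and Ddx3y values show only that the oxLDL 60 replicates of a genotype did not all come from a single animal. Within a genotype, libraries of the same number deviated together (18 pairs, correlation 0.183 to 0.695, median 0.405), while across genotypes at oxLDL 60 they ranged from -0.321 to 0.209. Numbers were therefore taken to pair libraries within a genotype and not between genotypes. The main fit and the main interactions held no block for this pairing, which entered only in alternative settings. The Xist-positive oxLDL 60 libraries, Apoe-/- replicate 2 and DKO replicate 3, also deviated together (correlation 0.469). The part of sex in these correlations was not tested.

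Named genes were Treml4, Apoe, all called genes, the 5 higher and 5 lower genes next in p with at least 1 RPKM and no overlap, leading members of each list, the study's genes, sex-linked genes and genes called in an interaction. Members and lists were chosen with earlier results of these data known, and 5 lists (endoplasmic reticulum chaperones, mitosis and cell cycle, MHC class I, AP-1 factors, apoptotic cell receptors) after values were seen. Names singled out beyond the rule, such as Malat1, Lars2, Mrc1 and Ubr2, were chosen after their values were seen. Positions and transcripts are from GENCODE M21 (GRCm38, the same build as mm10) and promoters from RefSeq on GRCm38.p6. Of the 16 called genes, 10 had a promoter entry. The fit was tested on simulated data. Python 3.11.15, numpy 2.4.6, pandas 2.3.3 and matplotlib 3.10.9 were used. Alternatives were the pseudocount, the filter, rescaling of libraries, Xist, replicate blocks, no trend, no fold limit, fewer libraries and leaving out each library.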

Additional observations from a re-analysis of the deposited data

Results flagged for a closer look

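Treml4 and Dnajb3 were called in the interaction of genotype and oxLDL 60 against untreated cells, in the fit without a replicate block. Both calls were lost in several settings given below. The DKO side of Treml4 was fixed near 0 by the deletion, so that its interaction restates the rise in Apoe-/- cells. For Treml4 the interaction was -1.701 on the log2 scale (adjusted p = 0.0118, limma), with Apoe-/- levels of 2.65 ± 0.809 RPKM untreated and 8.27 ± 0.185 RPKM at oxLDL 60 (SD, n = 3) and DKO libraries at 0 except for 1 untreated library at 0.0116 RPKM. For Dnajb3 it was 1.70 (adjusted p = 0.0313), with 6, 5 and 4 reads in untreated Apoe-/- and 2, 4 and 1 in untreated DKO libraries, against 0, 0 and 0 and 5, 6 and 7 at oxLDL 60. The call of Dnajb3 rests on these few reads. Dnajb3 also passed the filter on low values only with its DKO oxLDL 60 libraries included, so that its call is no independent support. Both calls were lost at a pseudocount of 0.01, with the 1 RPKM filter, with the 12 libraries alone and without any 1 of the 3 Apoe-/- oxLDL 60 libraries, and that of Dnajb3 also at a pseudocount of 1, without the Xist-positive libraries, under the fixed replicate block for the animal and without some other single libraries.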

How the results depend on the processing

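Of the 16 genes called at oxLDL 60, the count was 49 with a term for Xist-positive libraries, 74 without them, 3 with the 6 libraries alone and 2 with the replicate block by number across genotypes in those 6, and from 8 (without Apoe-/- replicate 3, or without DKO replicate 2) to 19 when a library was left out. The other settings called 13 to 19, with 14 under a random replicate block for the animal. Rescaling gave 18 calls, 13 higher and 5 lower, beside 10 and 6. Treml4 and Slc40a1 were called in all 18 alternatives, and Nnt in all but the block by number. The interaction against untreated cells had 2 calls, with 1 at a pseudocount of 1, 0 at a pseudocount of 0.01, with the 1 RPKM filter and with the 12 libraries alone, 5 under a fixed replicate block for the animal, and 0 to 2 when a library was left out (0 without any 1 of the 3 Apoe-/- oxLDL 60 libraries). The interaction against oxLDL 10 had 0 calls, with 1 at a pseudocount of 1, 1 with the 12 libraries alone, 2 without Xist-positive libraries, 2 under either replicate block for the animal, and 0 when any library was left out. Settings with fewer libraries had fewer residual degrees of freedom. Counts at oxLDL 60 in such settings both fell, to 3 with the 6 libraries alone, and rose, to 74 without the Xist-positive libraries. The count of 74 came from 2 against 2 libraries, with the same replicate numbers recurring across treatments and no block for them. The causes of these shifts were not tested. None of the 16 called genes changed sign, while 21 of 155 named genes did, all of them not called, and their log2 fold changes were as follows. At a pseudocount of 0.01 these were 0.21 for Eif2s3y and -0.36 for Xist. After rescaling these were 0.00872 for Ctss, 0.033 for Oas1a and 0.0168 for Plin2. Without Xist-positive libraries these were 0.28 for Acp5, -0.0133 for Ccr2, 0.12 for Cd36, 0.13 for Ctsk, 0.18 for Ctss, 0.56 for Itgax, 0.0637 for Itgb3bp, 0.20 for Nkg7, 0.017 for Oas1a, 0.0688 for Plin2 and -0.23 for Xist. When single libraries were left out they ran from -0.40 to 0.22 for Acp5, from -0.0104 to 0.43 for Ccl22, from -0.12 to 0.26 for Ccr2, from -0.13 to 0.052 for Cd36, from -0.11 to 0.12 for Ctss, from -2.57 to 2.29 for Ddx3y, from -2.79 to 2.47 for Eif2s3y, from -0.32 to 0.27 for Itgax, from -0.30 to 0.21 for Itgb3bp, from -2.01 to 1.69 for Kdm5d, from -0.0653 to 0.27 for Lck, from -0.67 to 0.0848 for Nkg7, from -0.0257 to 0.0423 for Oas1a, from -0.0473 to 0.0415 for Plin2, from -0.0454 to 0.20 for Scd2, from -0.32 to 0.00724 for Trem3, from -0.00434 to 0.45 for Treml1, from -0.17 to 0.0326 for Treml2, from -2.02 to 1.76 for Uty and from -2.25 to 2.11 for Xist. With 3 libraries a group the precision is set by few libraries, and genes near 3 reads cannot be resolved at this depth.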
